A study of Danio rerio with 6 samples.

Results

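The genes described are 10 globin genes of the zebrafish, chosen by name with earlier results of these data known. Of these, hbae1.1, hbae1.3, hbae3 and hbae5 are embryonic alpha globins, and hbbe1.1, hbbe1.2, hbbe2 and hbbe3 are embryonic beta globins. The gene hbaa1 is an adult alpha globin and hbba1 an adult beta globin. All 10 names stood among the 32053 rows of the count tables, and for hbba1, which stood on more than 1 row, the row with the highest total was used. The tested libraries came from embryos kept in 2 mg/L of BP-3, an abbreviation in common use for the sunscreen ingredient benzophenone-3, which the labels do not write out. They were compared with libraries labelled WT and control; both groups were dissected as gut tissue 5 days after fertilization, with 3 libraries each, and no other allele or agent is named. The treatment entry differs among the exposed libraries, with BP-3 for replicate 1, BP-4 for replicate 2 and BP-5 for replicate 3. Since the titles and the exposure protocol name no compound other than BP-3, the 3 were taken as 1 group.

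Haemoglobin is built of alpha and beta globin chains, each of which holds a haem group with an iron atom that binds oxygen. Zebrafish, like other vertebrates, use separate embryonic and adult globin genes, and the red cells that circulate in the larva at this age carry embryonic chains. Globin RNA is made by red cells and their precursors, and dissected gut carries it with the blood in its vessels.

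In the RefSeq gene table of assembly GRCz12tu, the globins form a pair of clusters. The larger cluster holds 12 of those found by their symbols, with the adult genes hbaa1 and hbba1 at one end and hbbe1.1, hbae1.1, hbbe1.2, hbae1.3 and hbae3 at the other. A further protein-coding gene within it, ba1l, was not matched by symbol and its counts were not read. The smaller holds 4, namely hbae4, hbbe3, hbbe2 and hbae5. The hbae1 genes are near-identical copies of each other, and so are the hbbe1 genes, and reads can be split wrongly among such copies. How the authors' counting treated reads that match several copies is not given in the sources used here.

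Total counts lay between 24000785 and 41726516 in BP-3 libraries and between 23567603 and 36961866 in WT libraries. Of 23167 rows that passed the filter on low counts, 2446 passed an adjusted p of 0.05 in edgeR's quasi-likelihood test, 10.6% of them, with 6.26% called higher in BP-3 and 4.29% called lower. The source of each replicate (clutch, pool or animal) is not labelled; the spread behind the p-values is that between libraries and may be technical. Replicate 3 had the fewest counts in each group. Its library also gave the lowest CPM (counts per 1e6 counts, scaled by TMM) of the group in both groups for all 7 globins tested, against 23.1% of all rows tested.

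Most of the embryonic globins, 5 of 8, were called higher in the BP-3 libraries, and the adult globins hbaa1 and hbba1 were at or close to 0 counts in every library. Of the 10 globins, 5 were called higher and 0 lower by edgeR's quasi-likelihood test: hbae1.1, hbae1.3, hbae3, hbbe1.2 and hbbe2. Of all rows tested, 6.26% were called higher and 4.29% lower. A further pair, hbbe1.1 and hbae5, was tested and not called, while hbbe3, hbaa1 and hbba1 had too few counts to be tested. The 5 called genes include near-identical copies that can share reads, so they are not independent calls. Leaving out BP-3 replicate 1 left 2 of the 5 called, and so did leaving out BP-3 replicate 2. The folds of the 5 called genes lay between 1.39 and 1.66, and the median log2 fold change of the 7 tested was 0.59, against -0.00 over all rows tested. For the count of 0 lower, 0 also passed at an unadjusted p of 0.05, and 0 were called in DESeq2 or limma-voom. In bulk tissue, more red cells and more globin RNA per red cell cannot be told apart.

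**Figure D1:**
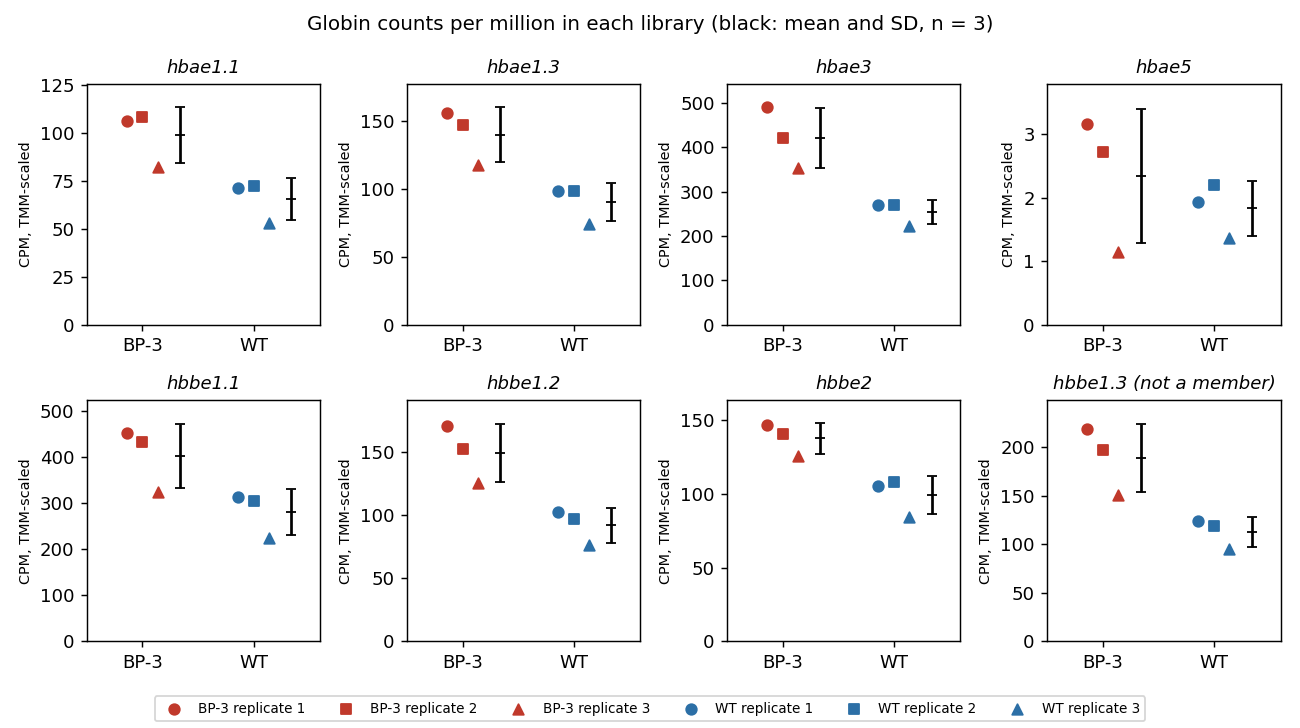
Each panel plots TMM-scaled CPM for 1 globin, with BP-3 libraries in red on the left and WT libraries in blue on the right, marker shapes for replicates 1 to 3, and the mean and SD of 3 libraries in black. For every gene drawn but hbae5, all BP-3 points lie above all WT points, and in every panel the replicate 3 library (triangle) is the lowest of its group; hbbe1.3 is a near copy of hbbe1.1 and hbbe1.2 and not one of the 10 genes.

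Among the embryonic alpha chains, hbae3 lies at the end of the larger cluster. It had 489.7, 420.2 and 354 CPM in BP-3 replicates 1 to 3, against 270.4, 269.5 and 222 CPM in WT replicates 1 to 3. Every BP-3 library lay above every WT library. With means of 421 ± 68.1 CPM in BP-3 and 254 ± 27.6 CPM in WT (SD, n = 3), the rise was 1.66-fold, a log2 fold change of 0.73 ± 0.12 (SE; edgeR quasi-likelihood adjusted p = 0.00497).

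The near-identical genes hbae1.1 and hbae1.3 encode embryonic alpha chains too. The CPM of hbae1.1 were 106, 108 and 82.1 in BP-3 libraries, against 71.3, 72.0 and 52.9 in WT libraries. Those of hbae1.3 were 155, 147 and 117 in BP-3, against 98.0, 98.2 and 74.0 in WT. In neither gene did the groups overlap, and in both the library of replicate 3 lay below the other libraries of its group. The rises were 1.51-fold for hbae1.1 (log2 fold change 0.59 ± 0.14 SE, edgeR adjusted p = 0.0214) and 1.55-fold for hbae1.3 (0.63 ± 0.13 SE, edgeR adjusted p = 0.0130). Because reads of the copies can be exchanged, the sum of hbae1.1 and hbae1.3 is safer than either alone. It averaged 239 ± 34.1 CPM in BP-3 and 155 ± 24.7 CPM in WT (SD, n = 3), a ratio of 1.53 for which no test was made. A further copy in the RefSeq table, hbae1.2, had no row in the count tables, so where its reads were counted is not known. Without BP-3 replicate 1 the calls of hbae1.1 and hbae1.3 were lost (edgeR adjusted p = 0.0831 and 0.0575), and so they were without BP-3 replicate 2 (0.0940 and 0.0623).

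The alpha gene hbae5, of the smaller cluster, was counted at a far lower depth. Its counts were 130, 95 and 28 in BP-3 libraries and 70, 63 and 33 in WT libraries, or 3.15, 2.72 and 1.14 CPM in BP-3 against 1.93, 2.204 and 1.36 CPM in WT. The groups overlap, since BP-3 replicate 3 gave the lowest value of all 6 libraries. Its log2 fold change of 0.38 ± 0.34 (SE) was not past the threshold (edgeR adjusted p = 0.534), and an SE this wide leaves room both for no change and for rises like those of the other alpha genes. Another embryonic alpha gene, hbae4, is not among the 10, and stands in the tables as zgc:163057, its synonym in the RefSeq table. It had 59, 81 and 28 counts in BP-3 and 47, 25 and 34 counts in WT, with a log2 fold change of 0.47 ± 0.32 (SE; edgeR adjusted p = 0.399).

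Among the embryonic beta chains, hbbe1.2 had 170.4, 153 and 125 CPM in BP-3 libraries, against 103, 96.7 and 76.1 CPM in WT libraries. All BP-3 values lay above all WT values. The rise was 1.63-fold (log2 fold change 0.70 ± 0.13 SE, edgeR adjusted p = 0.00879).

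Its near copy hbbe1.1 had 451, 433 and 323 CPM in BP-3 libraries, against 313, 304 and 224 CPM in WT libraries. The groups did not overlap, but BP-3 replicate 3 and WT replicate 1 lay close together. Its log2 fold change was 0.52 ± 0.15 (SE), with an edgeR adjusted p of 0.0512, just short of the threshold. Over the alternative settings that adjusted p ranged between 3.51e-06 and 0.173, and hbbe1.1 was called in DESeq2 (adjusted p = 0.00407). It was also called with both replicate 3 libraries left out (edgeR adjusted p = 5.47e-05). Another copy, hbbe1.3, is not among the 10 and rose 1.68-fold (log2 fold change 0.75 ± 0.14 SE, edgeR adjusted p = 0.00835). The sum of the 3 copies was 840.3, 783 and 599 CPM in BP-3 libraries, against 539.9, 520.03 and 395 CPM in WT libraries, and the ratio of its means was 1.53, with no test made. The summed beta copies and the summed hbae1 copies thus had much the same ratio.

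The beta gene hbbe2 of the smaller cluster had 146, 140.5 and 126 CPM in BP-3 libraries, against 105, 108 and 84.2 CPM in WT libraries. The groups did not overlap. Its rise of 1.39-fold was the smallest among the 5 called genes (log2 fold change 0.47 ± 0.10 SE, edgeR adjusted p = 0.0168). Its call was lost without BP-3 replicate 1 (edgeR adjusted p = 0.0719) and without BP-3 replicate 2 (0.0738). Whether the folds of 2 globins differ from each other was not tested.

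Of the 7 globins tested, 6 had groups that do not overlap, all with BP-3 higher. Of all rows tested, the groups did not overlap in 31%, and did not overlap with BP-3 higher in 16.1%. Taking libraries of the same replicate number, with 1 library on each side, hbae3 stood 1.81-fold, 1.56-fold and 1.59-fold higher in BP-3 for numbers 1, 2 and 3. For hbbe1.1 these ratios were 1.44, 1.42 and 1.44. The ratio within replicate 3 was thus close to that within the others, although both replicate 3 libraries had lower globin levels. For hbae5 the ratios were 1.64, 1.24 and 0.839. With both replicate 3 libraries left out, 6 of the 7 tested globins were called higher. Calls also rose over all rows in that fit, to 3894 of 23384 rows with 2147 higher. The reported fit called 2446 of 23167 rows, with 1451 higher.

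The 3 remaining genes were at the edge of detection. The adult alpha gene hbaa1 had 0 counts in all BP-3 libraries and 2, 0 and 0 in WT libraries. The adult beta gene hbba1 had 2, 0 and 0 counts in BP-3 and 2, 2 and 0 in WT, and a further row of the same name had 1, 2 and 0 in BP-3 and 0 in every WT library. The embryonic beta gene hbbe3 had 6, 0 and 0 counts in BP-3 and 0, 0 and 4 in WT. On the rows used, every nonzero count of these 3 genes was even, so single counts may not be separate molecules, which was not tested. Over the summed libraries the ratio of BP-3 to WT was 0.445 for hbba1 (exact 95% interval 0.0403 to 3.11) and 1.34 for hbbe3 (0.317 to 6.44), intervals that cover counting error only and take each count as a separate molecule. The limit that a count of 0 allows, 3 counts in a library, was between 0.0728 and 0.122 CPM in BP-3 and between 0.0826 and 0.124 CPM in WT. A difference in hbaa1, hbba1 or hbbe3 was not detectable at this depth. Of the adult genes outside the 10, hbaa2 had 0 counts in every library, and hbba2 had 6, 2 and 0 counts in BP-3 and 0 in all WT libraries. The exact 95% interval of the hbba2 ratio began at 1.52, again for counting error only. Its nonzero counts were even too, so no difference is read from them. Next to hbba1 in the larger cluster, si:ch211-5k11.8 had 6, 0 and 0 counts in BP-3 and 2, 0 and 0 in WT.

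Together the 10 genes took 0.150%, 0.140% and 0.115% of all counts in BP-3 libraries and 0.0946%, 0.0933% and 0.0755% in WT libraries. The groups did not overlap, and the means were 0.135% ± 0.0181 in BP-3 and 0.0878% ± 0.0107 in WT (SD, n = 3), a ratio of 1.54. No test was made on this sum. Embryonic genes made up nearly all of it, 0.135% of all counts in BP-3 and 0.0878% in WT.

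**Figure D2:**
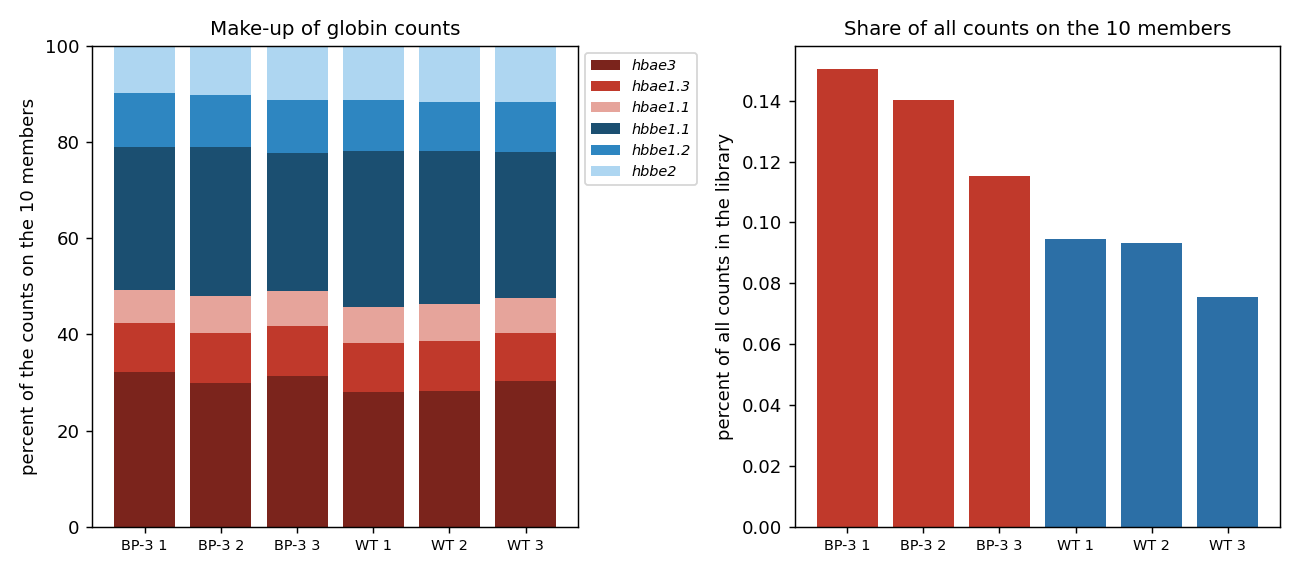
The left panel stacks the share of each of 6 embryonic globins in the counts of the 10 genes, in percent, for the BP-3 and then the WT libraries; hbae5, hbbe3, hbaa1 and hbba1 are too small to draw. The right panel gives the share of all counts in the library that fell on the 10 genes, in percent, with 0.150%, 0.140% and 0.115% in BP-3 (red) above 0.0946%, 0.0933% and 0.0755% in WT (blue), while the make-up on the left is much alike in the 6 libraries.

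The make-up of the globin counts varied little. These shares are of counts and not corrected for transcript length, so they do not rank the genes by expression. The share of hbae3 was 32.2%, 29.9% and 31.3% in BP-3 and 28.1%, 28.3% and 30.2% in WT, with overlap. That of hbbe1.1 was 29.6%, 30.8% and 28.6% in BP-3 and 32.5%, 32.0% and 30.5% in WT, with overlap. For hbbe1.2 the share was 11.2%, 10.9% and 11.1% in BP-3 and 10.7%, 10.2% and 10.4% in WT, without overlap; whether reads were split differently between copies was not tested. Because alpha and beta chains pair in haemoglobin, their balance was read as well. The ratio of alpha to beta counts was 0.982, 0.934 and 0.966 in BP-3 and 0.847, 0.868 and 0.912 in WT. The alpha share was thus slightly higher in each BP-3 library than in each WT library. With hbbe1.3 added to the beta side the ratio was 0.764, 0.734 and 0.765 in BP-3 and 0.684, 0.704 and 0.731 in WT, where the lowest BP-3 and the highest WT value nearly meet. No test was made on these ratios.

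Haem, the iron-bearing part of haemoglobin, is made by a chain of enzymes that red cells use most, though every cell has some. Of 26 haem synthesis and transport genes, 9 were called higher and 0 lower by edgeR, with a median log2 fold change of 0.34. The shares over all rows tested were 6.26% higher and 4.29% lower. For the 0 lower, 2 passed at an unadjusted p of 0.05, and 0 were called in DESeq2 or limma-voom. The red cell enzyme gene alas2, which starts haem synthesis, had 28.9, 26.2 and 26.9 CPM in BP-3 against 15.5, 16.1 and 14.5 CPM in WT, without overlap (1.78-fold, edgeR adjusted p = 0.000301). Unlike the globins, alas2 was not lowest in replicate 3 of the BP-3 group. Its relative alas1, which serves tissues outside red cells, rose 1.72-fold (edgeR adjusted p = 0.00119). The mitochondrial iron importer gene slc25a37, required for haem synthesis in zebrafish red cells, rose 3.67-fold from a low level, with 1.83 ± 0.570 CPM in BP-3 and 0.496 ± 0.0994 CPM in WT (SD, n = 3; edgeR adjusted p = 0.00841).

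Genes of the red cell membrane and its enzymes serve gas and ion transport and the cell's shape and metabolism. Of 29 tested, 4 were called higher and 1 lower by edgeR, with a median log2 fold change of 0.16. The log2 fold change was positive in 19 of the 29, against 49.8% of all rows tested. Over all rows tested, 6.26% were called higher and 4.29% lower. The anion exchanger gene slc4a1a, encoding band 3 of the red cell membrane, had 44.1, 45.8 and 37.7 CPM in BP-3 and 34.2, 35.4 and 32.3 CPM in WT (1.25-fold, edgeR adjusted p = 0.0425). The water channel gene aqp1a.1 rose 1.37-fold, the ammonium channel gene rhcga 1.31-fold and the carbonic anhydrase gene ca2 1.28-fold (edgeR adjusted p = 0.0158, 0.0130 and 0.0112). The red cell carbonic anhydrase gene cahz missed the threshold, with a log2 fold change of 0.20 ± 0.07 (SE; edgeR adjusted p = 0.129). The membrane gene rhag, named after its values were seen, had a log2 fold change of 0.06 ± 0.08 (SE; edgeR adjusted p = 0.700). The pyruvate kinase gene pklr, of liver and red cells in mammals, was the 1 that fell, with 101 ± 11.3 CPM in BP-3 and 189 ± 23.3 CPM in WT (SD, n = 3; edgeR adjusted p = 0.000773). Several genes of this list are also used outside blood, rhcga and ca2 among them.

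Set against genes of red cells and of haem synthesis, the globin sum gave different answers by gene. The ratio of the 10 globins to slc4a1a counts was 34.5, 30.6 and 29.9 in BP-3 and 28.2, 26.9 and 22.8 in WT, without overlap. The ratio to alas2 counts was 52.6, 53.6 and 41.9 in BP-3 and 62.1, 59.0 and 50.7 in WT, with overlap and a lower mean in BP-3. The ratio to the summed haem synthesis and membrane genes was 0.495, 0.470 and 0.403 in BP-3 and 0.342, 0.340 and 0.286 in WT, without overlap. That sum includes genes also used outside blood, such as alas1, rhcga and ca2, so it is not a measure of red cells alone. No test was made on these ratios.

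**Figure D3:**
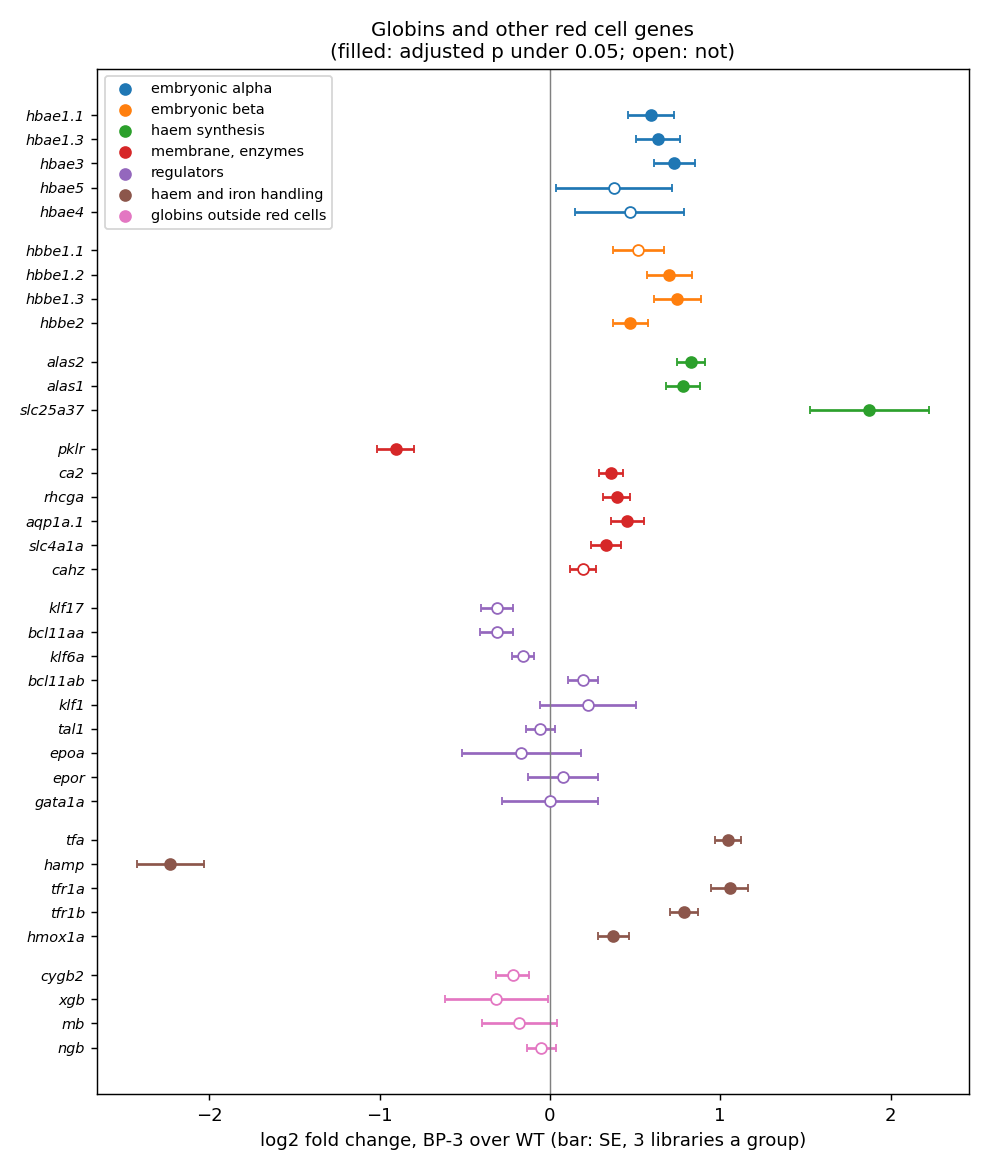
Points give the log2 fold change of BP-3 over WT with its SE (3 libraries a group) for the embryonic globins tested, hbbe1.3 and hbae4 included, and for red cell and haem genes named by rule; filled points passed an adjusted p of 0.05 in edgeR and open points did not. All embryonic globins lie right of 0, between 0.38 and 0.75, and none of the regulators drawn has a filled point.

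No regulator of red cell formation was called by edgeR. Of 30 tested, 0 were higher and 0 lower, with a median log2 fold change of 0.00, while 1 higher and 3 lower had an unadjusted p under 0.05. Over all rows tested, the shares called were 6.26% higher and 4.29% lower, so few calls would fall in a list of this length. In DESeq2 0 were called higher and 1 lower, and in limma-voom 0 in either direction. The master regulator gene of the red cell line, gata1a, had 3.25, 2.15 and 2.69 CPM in BP-3 and 3.22, 3.25 and 1.53 CPM in WT, with overlapping groups and a log2 fold change of 0.00 ± 0.28 (SE). The erythroid factor gene klf1 had one of 0.22 ± 0.28 (SE), the blood stem cell factor gene tal1 one of -0.06 ± 0.08 (SE), and the erythropoietin receptor gene epor one of 0.07 ± 0.21 (SE). Erythropoietin itself, epoa, had 1.38 ± 0.380 CPM in BP-3 and 1.53 ± 0.637 CPM in WT (SD, n = 3). The factor gene klf17, which acts in zebrafish primitive red cells, had groups without overlap but missed the threshold (log2 fold change -0.31 ± 0.10 SE, edgeR adjusted p = 0.0659). At the low counts of gata1a, klf1, epor and epoa, changes of the size seen in the globins could go undetected.

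Genes that supply iron or break down haem were mixed. Of 21 tested, 4 were called higher and 1 lower by edgeR, with a median log2 fold change of 0.30. Over all rows tested, calls were 6.26% higher and 4.29% lower. The transferrin receptor gene tfr1a, through which zebrafish red cells take up iron, had 17.6, 18.8 and 19.6 CPM in BP-3 and 8.79, 7.98 and 10.2 CPM in WT. Its groups lay far apart, and the rise was 2.08-fold (edgeR adjusted p = 0.000356). Its relative tfr1b rose 1.72-fold, and the transferrin gene tfa, made by liver, rose 2.07-fold (edgeR adjusted p = 0.000381 and 4.69e-05). The haem oxygenase gene hmox1a rose 1.295-fold (edgeR adjusted p = 0.0318). The gene of the iron hormone hepcidin, hamp, was lower, with 1.34 ± 0.370 CPM in BP-3 and 6.44 ± 0.152 CPM in WT (SD, n = 3; edgeR adjusted p = 0.000137).

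Among globins that do not belong to red cells, no call was made. Of 5 tested, 0 were called in either direction by edgeR, DESeq2 or limma-voom, and 1 was lower at an unadjusted p under 0.05. Over all rows tested, edgeR called 10.6%, so 0 of 5 is not read as a result about these genes. Myoglobin, mb, the oxygen store of muscle, had 6.87, 14.3 and 11.9 CPM in BP-3 and 12.9, 13.1 and 11.1 CPM in WT. Log2 fold changes were -0.22 ± 0.09 (SE) for the cytoglobin gene cygb2 and -0.05 ± 0.08 (SE) for the neuroglobin gene ngb. The groups of cygb2 did not overlap, with BP-3 lower, while in 31% of all rows tested the groups did not overlap. Whether their folds differ from those of the red cell globins was not tested.

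**Figure D4:**
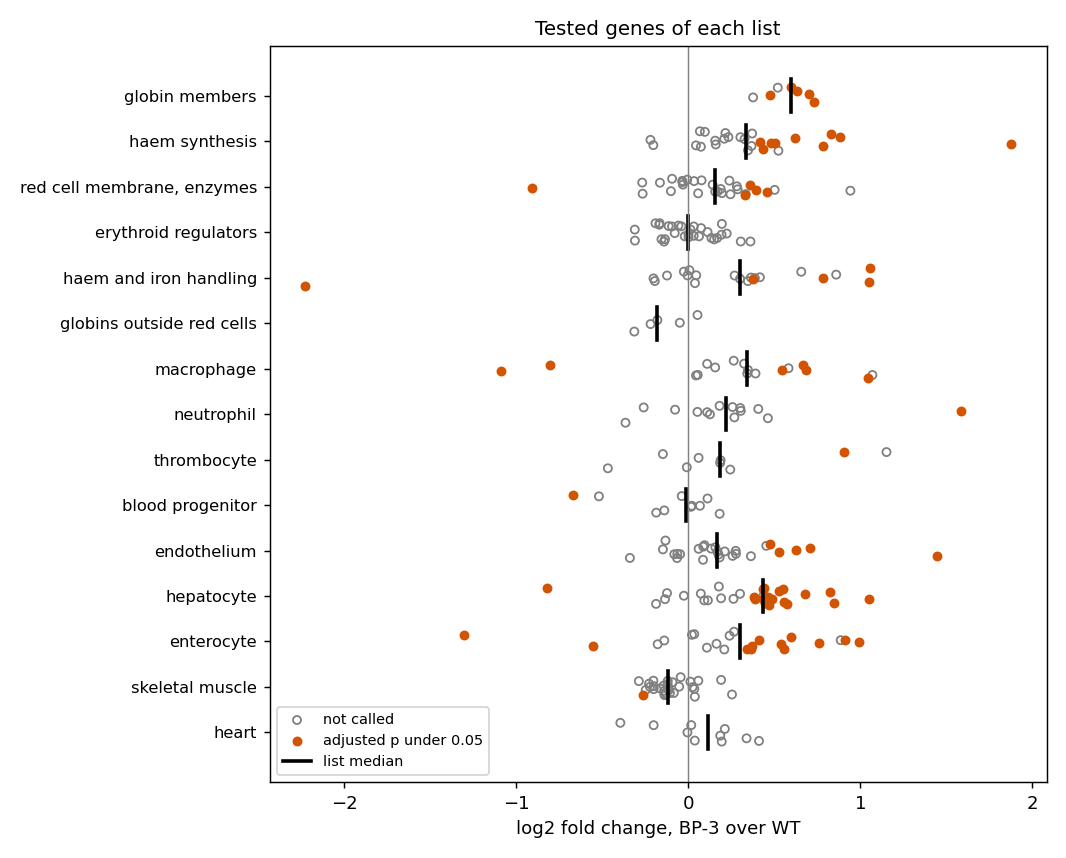
Each point is the log2 fold change of BP-3 over WT of 1 tested gene, by gene list; orange points passed an adjusted p of 0.05 in edgeR, open points did not, and black bars mark list medians. The 7 tested globins have a median of 0.59 and haem synthesis one of 0.34, next to 0.43 for hepatocyte and 0.34 for macrophage markers.

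Markers of other cell types differed by list, next to 6.26% of all rows tested called higher and 4.29% called lower. Of 30 hepatocyte genes, 17 were called higher and 1 lower, with a median log2 fold change of 0.43, and they took 1.26% to 1.38% of counts in BP-3 and 0.834% to 0.916% in WT. None of these genes was at 0. Of 22 enterocyte genes, 10 were higher and 2 lower, with 1.31% to 1.35% of counts in BP-3 and 0.930% to 0.984% in WT. Among blood and vessel cells, 4 of 17 macrophage genes were higher and 2 lower. Of 27 endothelium genes 5 were higher and 0 lower, with the smallest adjusted p in stab1, lyve1a, mrc1a and plvapb. The pan-endothelial genes kdrl and cdh5, named after their values were seen, had log2 fold changes of 0.06 ± 0.08 and 0.09 ± 0.11 (SE). They do not stand for the list, where 20 of 27 genes had a positive log2 fold change and the median was 0.17. Of all rows tested, 49.8% were positive. For the 0 lower, 1 endothelium gene passed at an unadjusted p of 0.05, and 0 were called in DESeq2 or limma-voom. Thrombocyte genes had 1 of 9 higher, tubb1 (edgeR adjusted p = 0.0495), and neutrophil genes 1 of 14, lect2l. Of 10 blood progenitor genes 1 was lower, rag1. Single calls in lists this short are not read as results about those cells. Skeletal muscle genes took 8.76% to 9.24% of counts in BP-3 and 9.50% to 9.96% in WT, with 1 of 30 called lower, and 0 of 10 heart genes were called by edgeR, DESeq2 or limma-voom, with 1 higher and 1 lower at an unadjusted p under 0.05. In a tissue labelled intestinal, muscle genes thus took a larger share of counts than enterocyte genes in every library. The part of tissue make-up in the globin result was not tested.

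Some of the protein-coding genes that flank the clusters in the RefSeq table were also read. The flanking genes mpg, dock6, foxj1b and rhbdf1b were not. Next to hbae3, kank2 had 26.3 ± 2.82 CPM in BP-3 and 21.0 ± 2.72 CPM in WT (SD, n = 3), with a log2 fold change of 0.33 ± 0.11 (SE; edgeR adjusted p = 0.0929). Next to hbae5, the water channel genes aqp8a.2 and aqp8a.1 had log2 fold changes of 0.19 ± 0.10 and 0.35 ± 0.11 (SE; edgeR adjusted p = 0.266 and 0.0725). None of these 3 neighbours, chosen after the data were seen, passed the threshold, which 10.6% of all rows tested passed. In kank2 and aqp8a.1 all BP-3 values lay above all WT values, as in 16.1% of all rows tested. In aqp8a.2 the groups overlapped. On the other side of the larger cluster, nprl3, whose introns hold globin enhancers in mammals, had a log2 fold change of 0.01 ± 0.09 (SE).

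The rows most like the embryonic globins across the 6 libraries were sought among 13341 rows whose log2 CPM averaged 3 or more. The measure was Pearson's correlation with the mean log2 CPM of the 7 tested globins, given as a description. The closest 5 were zgc:165423, the mitochondrial creatine kinase gene ckmt2a, the replication protein gene rpa1, the muscle methyltransferase gene smyd1b and the lysosomal protease gene ctsz, with r between 0.996 and 0.999. In all 5 the groups did not overlap and replicate 3 was lowest in each group. The globin mean has both traits too, so the choice of rows by correlation favours them. Their folds lay between 1.21 and 1.36, and 1 of them, zgc:165423, was called (edgeR adjusted p = 0.0493). Other red cell genes ranked lower, with r of 0.982 for aqp1a.1 at place 79, 0.961 for slc4a1a at place 265 and 0.843 for alas2 at place 1408. Within the membrane and enzyme list, r ran from that of aqp1a.1 down to -0.930 for epb41a at place 12880, named for its rank. The r values of that list thus spread widely. Several of its genes are also used outside blood, and genes under the log2 CPM limit were not ranked. The spread therefore does not describe red cell genes alone.

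**Figure D5:**
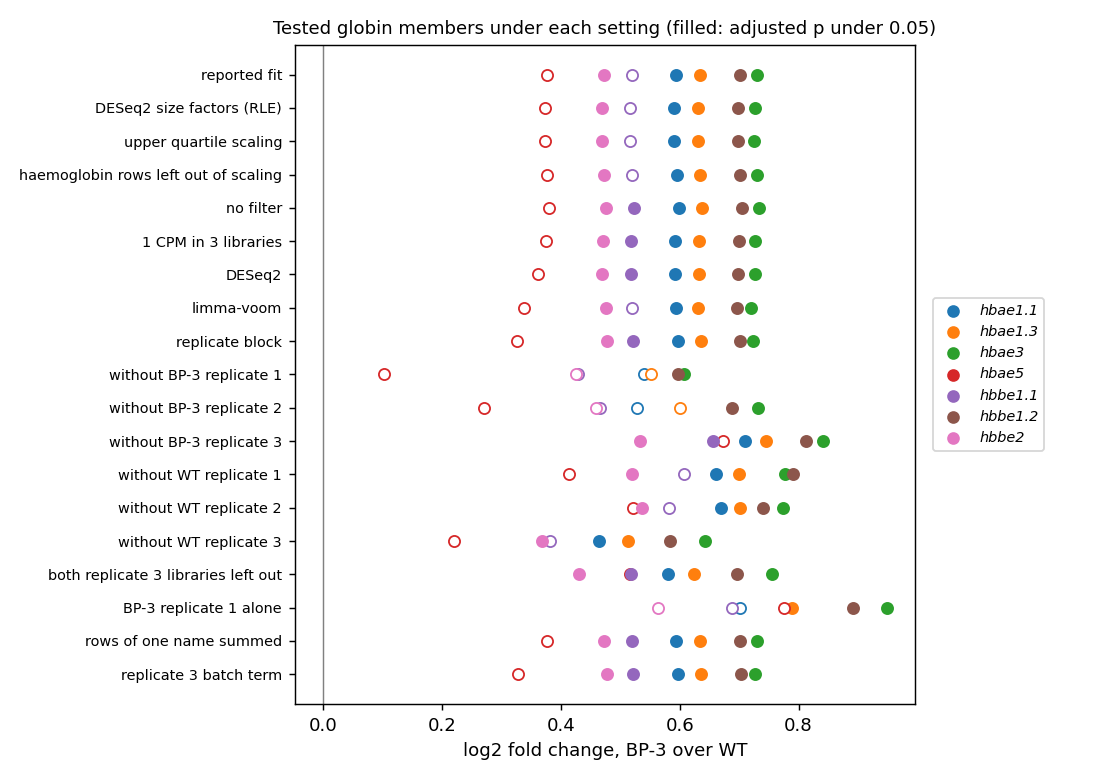
Rows are the reported fit and its alternatives, and points are the log2 fold changes of BP-3 over WT of the 7 tested globins, filled where the adjusted p was under 0.05. All points lie right of 0; hbae3 and hbbe1.2 are filled in every row, hbae5 in none, and the fewest filled points are in the rows without BP-3 replicate 1 and without BP-3 replicate 2, with 2 each.

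Across the reported fit and its 18 alternatives, drawn in the plot of settings, all 7 tested globins kept a positive log2 fold change. For the 6 whose groups did not overlap, leaving out libraries could hardly turn that sign. The value of hbae5 fell to 0.10 without BP-3 replicate 1. The genes hbae3 and hbbe1.2 were called in the reported fit and in every alternative, with adjusted p-values of at most 0.0269 and 0.0428. The count of called globins fell to 2 without BP-3 replicate 1, to 2 without BP-3 replicate 2, and to 3 with BP-3 replicate 1 as the only exposed library. In that last fit the spread comes from the WT libraries alone, and the lone exposed library is assumed to vary like them.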

How the data were processed

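The authors deposited raw read counts per gene, 1 table for each library, with no normalization. Per the labels' protocols, dissected tissue was extracted with TRIzol and sequenced in paired-end mode. The sources used here do not give the aligner, the counter, the annotation or whether strand was used. The submitters' processing notes name the build mm9, a mouse build, so no coordinates are given. Blank rows at the end of the tables hold no counts (a share of 0) and were dropped. Of 32053 rows, 19391 carry a symbol of the RefSeq table (GRCz12tu), as do all 10 globins.

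In R 4.3.3, filterByExpr kept 23167 rows, and edgeR 4.0.16 scaled them by TMM and gave quasi-likelihood tests with no covariate. Benjamini-Hochberg adjustment ran over every row kept, with a threshold of 0.05. The code of the edgeR fit was checked on simulated counts that held no replicate 3 effect, and no result here rests on that check. CPM values are TMM-scaled; sums and ratios of globins are described without tests. An exact permutation test of 3 libraries against 3 has a smallest p of 0.1. Alternatives used DESeq2 1.42.0, limma-voom (limma 3.58.1), other scalings and filters, the replicate block and omitted libraries. The globins and all 15 other gene lists were chosen with earlier results of these data known. Genes named are the 10 globins, other globins, from each list up to 4 genes by smallest adjusted p, a fixed panel of red cell genes, and the 5 rows most alike in pattern; exceptions are marked, and 1 gene that the rule names is not reported here. Figures used matplotlib 3.10.9.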

Additional observations from a re-analysis of the deposited data

How the results depend on the processing

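Every tested globin kept its direction under all 18 alternatives. For the 6 whose groups did not overlap, leaving out libraries could hardly reverse it, so this is weak evidence of stability. The log2 fold change of hbae5, whose groups overlap, fell to 0.10 without BP-3 replicate 1 (edgeR adjusted p = 0.908). Of the 5 calls, hbae1.1 was lost in 3 alternatives, hbae1.3 in 2 and hbbe2 in 3, all of them settings that leave out exposed libraries, where fewer libraries enter the fit; hbbe1.1, not called in the reported fit, was called in 8. With each library left out in turn, called globins ranged from 2 to 6 and called rows from 1084 to 2494 (696 to 1448 higher, 388 to 1046 lower). Called rows were 1242 without BP-3 replicate 1, 1084 without BP-3 replicate 2, 1245 without WT replicate 1 and 1287 without WT replicate 2, each over 1.5 times below 2446. With BP-3 replicate 1 alone, 3 globins and 435 rows were called (293 higher, 142 lower). The replicate block gave 5026 called rows (2747 higher, 2279 lower) and 6 globins, and an adjusted p of 1.88e-05 for hbbe1.1. Deviations of same-numbered libraries correlated at 0.0859, 0.0643 and 0.225 for numbers 1 to 3. The best correlation with another number was 0.0692, 0.0859 and -0.115. Number 3 thus stood apart from the others, number 1 hardly did and number 2 did not. The reported fit did not use the numbers as pairs, and ratios between same-numbered libraries are a description. Leaving out both replicate 3 libraries gave 3894 rows (1747 lower), and a replicate 3 batch term, added after seeing the data, 5421 (2931 higher, 2490 lower); the cause was not tested. Another scaling moved no globin call. The globin share, the alpha to beta ratio and the ratio to summed haem and membrane genes were recomputed in the 9 alternatives that change libraries or rows, and moved by less than the spread between replicates; the other ratios were not recomputed. The BP-3 over WT ratio of globin shares ranged from 1.44 to 1.71. Depth limits the 3 genes not tested. For hbae5, which had far fewer counts than the other tested globins, the BP-3 libraries also spread widely (3.15, 2.72 and 1.14 CPM). How much of its SE comes from depth was not tested.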

Other observations

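At the other end of the correlation ranking stood bcl11aa, a zinc-finger gene related to mammalian BCL11A and used in the nervous system as well as in blood. It had 60.9, 63.1 and 74.2 CPM in BP-3 and 77.3, 77.8 and 90.7 CPM in WT, so the groups did not overlap and replicate 3 was the highest library of each group, the mirror image of the globins. Its correlation with the mean log2 CPM of the 7 tested globins was -0.999 over the 6 libraries, the lowest of 13341 rows. Its log2 fold change was -0.31 ± 0.10 (SE), with an edgeR quasi-likelihood adjusted p of 0.0691, not past the threshold. It was singled out after its values were seen, and correlations over 6 libraries that share a group difference and a replicate 3 difference are a description only.

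The related gene bcl11ab had a log2 fold change of 0.20 ± 0.09 (SE; edgeR adjusted p = 0.185) and a correlation of 0.353 with the globins.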
